A study of Homo sapiens with 64 samples.

Results

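The genes described here were 10 tight junction genes, namely 7 claudins (CLDN1, CLDN2, CLDN3, CLDN4, CLDN7, CLDN12 and CLDN23), occludin (OCLN), the scaffold protein ZO-1 (TJP1) and the junctional adhesion molecule JAM-A (F11R). They were chosen by symbol through the Ensembl identifiers of the count tables, and all 10 were found among the 54127 genes listed. RNA sequencing (RNAseq) had been performed on 64 samples of 6 human colorectal cancer cell lines, HT55, SW948, RKO, SW48, DLD1 and HCT15, grown as nonadherent spheroids with EGF and bFGF. Cells were loaded with CFSE, a fluorescent dye shared out between daughter cells whenever a cell divides, and 48 samples were sorted at day 6 into label-retaining cells (LRCs, high CFSE) and non-LRCs (labeled BULK), with 4 samples of each in every line. The other 16 samples were DLD1 controls that the labels place in neither population, either CFSE labeled or unlabeled (DMSO), at day 1 or day 5, again with 4 samples per group. The labels give day 5 for the later controls, whereas the series' design text gives day 6. All sorted cells, LRC and non-LRC alike, had carried the dye, and each line stands for 1 established tumor line rather than for a set of tumors.

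Tight junctions seal the space between neighboring epithelial cells. Claudins are 4-pass membrane proteins that set which ions and solutes cross the seal, with some members tightening it and others, such as claudin-2, forming pores for cations and water. Occludin and JAM-A lie in the same strands and contacts, and ZO-1 ties them to the actin cytoskeleton. In the colon, claudin-3, claudin-4 and claudin-7 are widely expressed along the epithelium, whereas claudin-2 and claudin-1 are best known for their rise in inflamed or neoplastic tissue.

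Libraries held between 12237225 and 20913455 counts on genes (median 15063858). Levels are given as CPM, read counts scaled to library size, with normalization by the trimmed mean of M values (TMM) within the sorted samples and, separately, within the controls. The study's methods call the experiments biological quadruplicates, and the labels do not say how the 4 samples of a group were separated, so that p-values measure the spread between these samples. Both populations were bulk RNA, in which fewer cells expressing a gene and less RNA per cell cannot be told apart. Of 8 colorectal epithelial markers, all exceeded 1 CPM in some sample of every HT55 and SW948 group, whereas 3 stayed under 1 CPM in RKO, 2 in SW48 and 1 in DLD1 and in HCT15, and the summed level of the 8 ran from 228 CPM (RKO non-LRC mean) to 14290 CPM (HT55 non-LRC mean). Fibroblast and endothelial marker sums stayed at or below 13.0 and 3.50 CPM in sorted samples. The leukocyte marker sum reached 1541 CPM in RKO, where CD68 made up nearly all of it and PTPRC and CD3E were at 0. The library labeled DMSO d1 replicate 4 was closer to DMSO d5 replicate 3 (root mean square log2 distance 0.226) than to its own group (0.554 to 0.639), and SW948 LRC replicate 4 was closer to SW948 non-LRC replicate 3 (0.182) than to the other SW948 LRC samples (0.34 to 0.464). Values without either library are given beside the results below. Both libraries were chosen after the data were seen, for lying near the other side of a comparison. Larger differences without them are therefore no independent support. HT55 LRC replicate 2 and SW48 LRC replicate 2 also lay nearest to non-LRC replicate 2 of their line (0.229 and 0.359), and the reverse held. SW948 non-LRC replicates 3 and 4 lay nearest to SW948 LRC replicate 4 (0.182 and 0.184). DMSO d5 replicates 3 and 4 lay nearest to DMSO d1 replicate 4 (0.226 and 0.247), and replicate 2 to CFSE d5 replicate 4 (0.321). CFSE d1 replicates 1 and 2 (0.238) and 3 and 4 (0.172) formed pairs up to 0.565 apart. These samples were kept.

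The starts of 4 claudin genes are shown because their patterns between lines, described below, contrast with one another. Each run is the 250 bases before a RefSeq start on GRCh38.p14, written 5′ to 3′ on the gene's strand. Capitals mark GC boxes, searched as GGGCGG or its reverse complement CCGCCC. E-boxes, searched as CACCTG or CAGGTG, were not found in these 4 windows. The windows lie at chr3:190322447-190322696 on the minus strand (CLDN1), chrX:106899914-106900163 on the plus strand (CLDN2, first of 2 starts), chr7:73770271-73770520 on the minus strand (CLDN3) and chr17:7263214-7263463 on the minus strand (CLDN7, first of 2 starts).
CLDN1: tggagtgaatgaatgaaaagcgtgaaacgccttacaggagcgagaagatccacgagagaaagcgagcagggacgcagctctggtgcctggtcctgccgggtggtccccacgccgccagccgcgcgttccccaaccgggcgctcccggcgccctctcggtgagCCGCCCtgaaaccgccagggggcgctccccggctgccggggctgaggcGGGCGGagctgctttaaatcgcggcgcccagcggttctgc
CLDN2: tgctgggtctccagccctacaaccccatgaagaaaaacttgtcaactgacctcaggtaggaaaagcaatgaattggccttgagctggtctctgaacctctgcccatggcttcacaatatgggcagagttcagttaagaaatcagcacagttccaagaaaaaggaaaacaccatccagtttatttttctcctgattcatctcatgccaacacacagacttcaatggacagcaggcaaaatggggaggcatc
CLDN3: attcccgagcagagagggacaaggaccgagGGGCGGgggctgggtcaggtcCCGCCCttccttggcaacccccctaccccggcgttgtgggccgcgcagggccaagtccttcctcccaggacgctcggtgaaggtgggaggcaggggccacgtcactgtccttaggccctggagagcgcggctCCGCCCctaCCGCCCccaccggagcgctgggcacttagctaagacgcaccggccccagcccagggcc
CLDN7: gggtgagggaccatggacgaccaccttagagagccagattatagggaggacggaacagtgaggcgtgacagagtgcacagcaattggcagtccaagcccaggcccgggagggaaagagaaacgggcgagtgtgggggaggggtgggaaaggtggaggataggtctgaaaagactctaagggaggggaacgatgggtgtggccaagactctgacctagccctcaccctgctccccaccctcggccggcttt

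The CLDN3 window held 4 GC boxes at 71.6% G and C, and the CLDN1 window held 2 at 68.8%. Neither motif lay in the CLDN2 window, which had 46.0% G and C, or in the first CLDN7 window (60.4%), whereas the second CLDN7 window held 4 E-boxes and 1 GC box. The RefSeq table gave 14 windows for 8 of the 10 genes. An E-box lay in 4 of them (CLDN7, both OCLN windows and the first TJP1 window) and a GC box in 8. Over all 35116 windows of the same length in the table, 17.5% held an E-box and 42.6% a GC box. These letters describe the windows, and no binding was measured.

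In GENCODE on GRCh37 the genes lie at 3:190023496-190040235 (CLDN1), X:106143394-106174091 (CLDN2), 7:73183327-73184600 (CLDN3), 7:73213872-73247020 (CLDN4), 17:7163222-7167302 (CLDN7), 7:90013035-90142716 (CLDN12), 8:8559447-8561606 (CLDN23), 5:68788119-68853931 (OCLN), 15:29991571-30261118 (TJP1) and 1:160965001-160991133 (F11R). The annotation behind the counts is not given, so the exon overlaps here and the exon lengths used below are those of GENCODE. CLDN23 shared 72.5% of its exon bases with a counted pseudogene on the same strand and drew only 858 counts over all 64 libraries, so its values are uncertain. CLDN2 shared 9.99% of its exon bases with RIPPLY1 on the opposite strand, and whether the counting used strand is not given in the sources used here. F11R shared 36.6% of its exon bases with a readthrough transcript that is not among the counted genes.

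The first question was how far the 6 lines differ in these genes, taken from the 24 non-LRC samples. All 10 genes were tested in all 15 pairs of lines with edgeR's quasi-likelihood test, and 118 of the 150 tests passed an adjusted p of 0.05 (Benjamini-Hochberg, over all genes and pairs). That is 78.7%, beside 71.2% for all genes tested. The number of the 10 genes called per pair ran from 4 for SW48 against DLD1 to 10 for RKO against DLD1, RKO against HCT15 and SW948 against SW48. A difference between lines was therefore the rule for these genes and for the rest of the transcriptome alike.

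**Figure D1:**
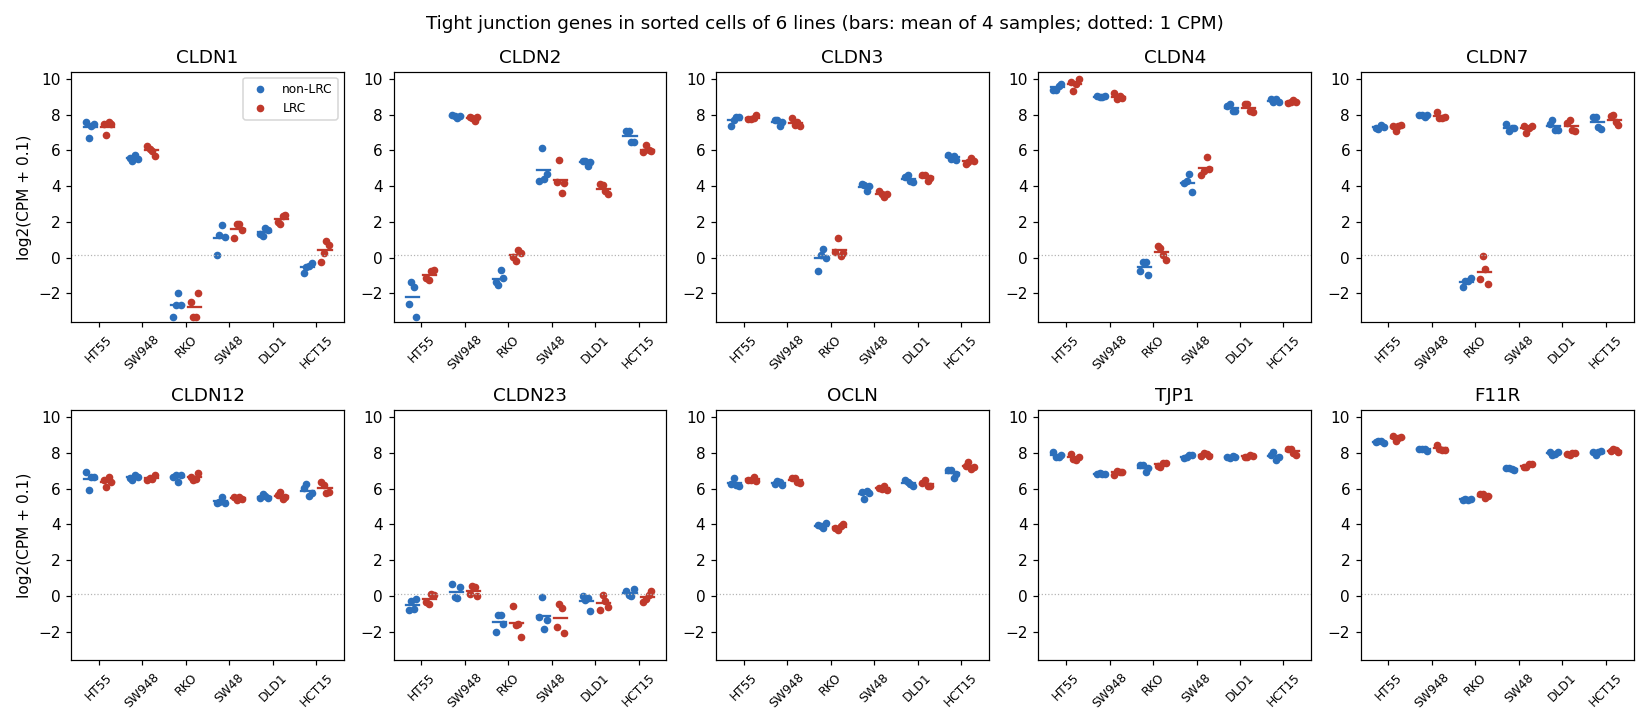
Level of each gene in every sorted sample, as log2(CPM + 0.1), by line (non-LRC blue, LRC red, horizontal bars the mean of 4 samples, dotted line 1 CPM). RKO has the lowest non-LRC mean for 7 of the 10 genes, while CLDN12 has its highest mean there (100.5 CPM).

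RKO stood apart by near absence of most claudins. CLDN7, which binds EpCAM and lies along the lateral membrane, had 0.218, 0.311, 0.304 and 0.361 CPM in the 4 RKO non-LRC samples. In SW48, the next line up, it had 180.1, 134.6, 151.3 and 153.4 CPM, and no sample of any other line came near the RKO values. The difference between SW48 and RKO was 8.96 on the log2 scale (SE 0.25, edgeR adjusted p = 6.82e-21). Across the other lines CLDN7 ran from a mean of 154.8 CPM in SW48 to 248.8 in SW948. SW948 was above each of the other 4 (adjusted p from 7.06e-05 to 0.0229) and HCT15 above SW48 (0.0295), whereas the neighboring pairs HCT15 and DLD1, DLD1 and HT55, and HT55 and SW48 did not pass the test (adjusted p from 0.142 to 0.848).

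CLDN4, a claudin that tightens the seal and is abundant in surface epithelium, fell into 3 levels. HT55 non-LRCs held 657.7, 671.9, 791.1 and 855.8 CPM, followed by SW948 (mean 519.3 ± 13.9, SD, n = 4), HCT15 (443.5 ± 26.9) and DLD1 (336.5 ± 49.8). SW48 held 18.0, 19.2, 25.4 and 12.6 CPM, and RKO 0.508, 0.746, 0.76 and 0.421 CPM. The step from DLD1 to SW48 was 4.15 on the log2 scale (SE 0.15, edgeR adjusted p = 2.71e-18) and that from SW48 to RKO 4.95 (SE 0.23, edgeR adjusted p = 4.29e-16), whereas SW948 and HCT15 did not differ beyond their spread (adjusted p = 0.126).

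CLDN3, another sealing claudin of the intestine, was highest in HT55 (165.8, 211.7, 231.1 and 234.1 CPM) and SW948 (209.5, 208.9, 167.3 and 196.6 CPM). Those ranges overlapped, and the pair did not pass the test (edgeR adjusted p = 0.245). HCT15 averaged 49.3 CPM, DLD1 21.5, SW48 15.8 and RKO 0.924, with every one of these steps called (adjusted p from 6.64e-16 to 0.004). SW48 thus had CLDN7 within the range of HT55 and DLD1, while its CLDN4 and CLDN3 levels were below those of every line but RKO.

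CLDN1, which forms tight barriers in skin and is a target of β-catenin signaling, was a gene of HT55 and SW948. HT55 non-LRCs held 195.6, 103.7, 167.9 and 177.9 CPM and SW948 non-LRCs 46.9, 42.5, 53.8 and 46.6 CPM. In the other 4 lines no non-LRC sample exceeded 3.47 CPM, and RKO ranged from 0 to 0.152 CPM. The step from SW948 to DLD1 was 4.18 on the log2 scale (SE 0.21, edgeR adjusted p = 1.71e-15), while DLD1 and SW48 (means 2.62 and 2.23 CPM) did not differ beyond their spread (adjusted p = 0.514).

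CLDN2, the pore-forming claudin, followed another order. SW948 non-LRCs held 252.4, 245.8, 227.3 and 241.2 CPM and HCT15 137.6, 135.8, 89.9 and 88.2 CPM. DLD1 (mean 40.4 CPM) and SW48 (34.5 CPM) did not differ beyond their spread (edgeR adjusted p = 0.454), SW48 replicate 2 being far above the other 3 samples of its group (71.7 against 19.5 to 25.8 CPM). RKO averaged 0.358 CPM, and HT55, the line with the most CLDN1 and CLDN4, averaged 0.144 CPM with 1 sample at 0. RKO and HT55 were not told apart (adjusted p = 0.392).

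The remaining claudins varied less. CLDN12, a claudin without the usual C-terminal motif for binding ZO proteins, was the only member of the 10 whose highest mean lay in RKO. Its 4 RKO non-LRC samples held 100.8, 109.7, 82.0 and 109.6 CPM, which did not differ beyond the spread from SW948 (mean 99.96 CPM, edgeR adjusted p = 0.952). The lowest mean was 39.4 CPM in SW48, next to DLD1 at 46.9 CPM (adjusted p = 0.161). CLDN23 stayed between means of 0.285 CPM (RKO) and 1.11 CPM (SW948), and no pair of neighbors in its order passed the test.

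The non-claudin members were present in every line. OCLN was highest in HCT15 (132.8, 132.1, 95.97 and 113.9 CPM in non-LRCs) and lowest in RKO (15.7, 14.7, 13.6 and 17.1 CPM), with DLD1, SW948 and HT55 between them at means of 80.1, 79.7 and 79.0 CPM. Those 3 lines were not told apart from one another (adjusted p from 0.815 to 0.972), while HCT15 was above DLD1 (5.3e-05) and HT55 above SW48 (2.76e-05). F11R ran from 395.3 CPM in HT55 to 42.2 CPM in RKO, and its step from SW48 to RKO was 1.72 on the log2 scale (SE 0.07, edgeR adjusted p = 6e-18). TJP1 had the narrowest order, with 4 lines between 219.7 and 233.9 CPM that did not differ from their neighbors (adjusted p from 0.570 to 0.783), then RKO at 146.0 CPM and SW948 at 114.0 CPM. RKO therefore kept the scaffold gene at 146.0 CPM where CLDN7, CLDN4 and CLDN3 were each under 1 CPM on average.

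Levels of different claudins were compared per length, as CPM per kilobase of exon. The 7 claudins summed to 463.2 CPM per kb in SW948 non-LRCs, 446.8 in HT55, 254.2 in HCT15, 175.7 in DLD1, 95.3 in SW48 and 16.2 in RKO. Of that summed level, HT55 had 37% CLDN3, 35.5% CLDN4, 14.3% CLDN7 and 9.95% CLDN1, and SW948 had 33.1% CLDN3, 23.9% CLDN4, 21.6% CLDN7 and 15.3% CLDN2. DLD1 and HCT15 shared a make-up led by CLDN4 (40.8% and 37.1%) and CLDN7 (38.3% and 30.8%). In SW48 CLDN7 alone made up 65.2%, and in RKO CLDN12 made up 92.4%. With the longest transcript in place of all exons the leading gene changed in DLD1, where CLDN7 (41.0%) then stood above CLDN4 (38.0%), and in HT55, where CLDN4 (35.7%) then stood above CLDN3 (33.0%).

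**Figure D2:**
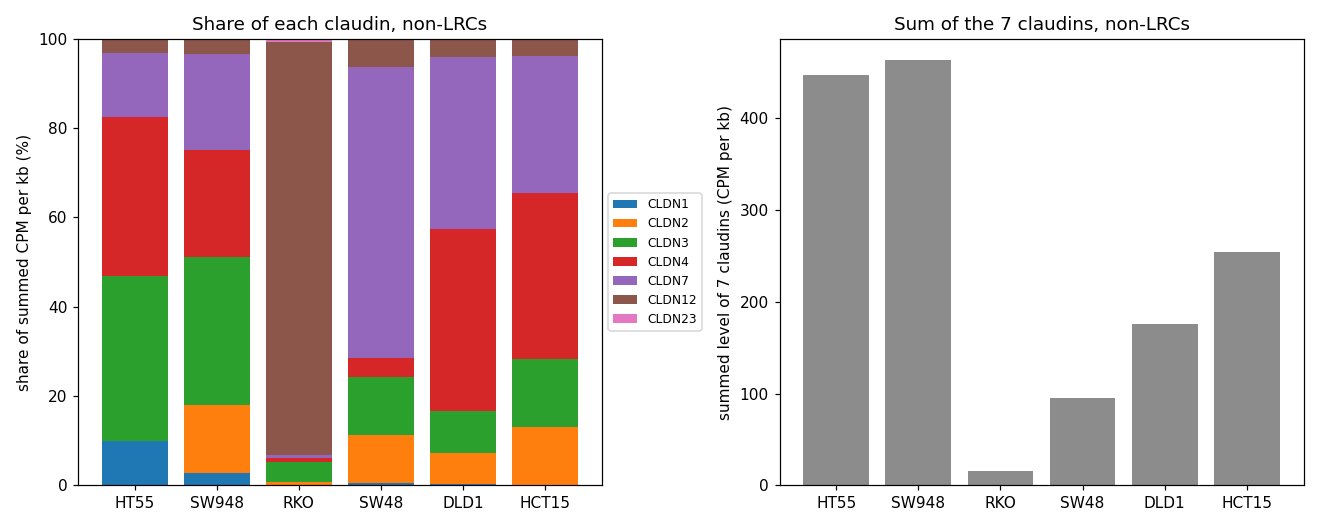
Share of each of the 7 claudins in their summed CPM per kb (%), mean of 4 non-LRC samples per line. CLDN12 fills 92.4% of the RKO bar and CLDN7 65.2% of the SW48 bar, and CLDN3 has the largest share in SW948 and, over all exons but not over the longest transcript, in HT55.

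Junction genes outside the 10 varied between lines over similar spans. Cell contact genes at their lowest in RKO non-LRCs included CDH1, which encodes E-cadherin of the adherens junction (1243 CPM in HT55, 0.893 in RKO), JUP, which encodes plakoglobin (705.8 and 0.679 CPM), and the ZO-1 relative TJP3 (142.0 CPM in SW948 and 0.0956 in RKO). EPCAM, a claudin-7 partner, ran from 1463 CPM in HT55 to 15.6 CPM in RKO, and the membrane protease gene ST14 from 546.6 CPM in SW948 to 0.356 CPM in RKO. ZEB1, a repressor of epithelial genes, ran the other way, at 345.4 CPM in RKO and 0.0722 CPM in HT55, and VIM, which encodes vimentin, was also highest in RKO (26.5 CPM). The mesenchymal list did not move as 1, since FN1, which encodes fibronectin, was highest in SW948 (5.03 CPM, against 0.0492 in RKO) and SNAI1 in HT55 (16.1 CPM). SNAI1 was named for its adjusted p in the comparison of LRCs with non-LRCs. The other genes were taken from fixed lists for having the widest ranges, so their spans are a description.

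Over the 48 sorted samples, the gene whose log2 CPM followed CLDN4 most closely was TJP3 (Pearson r = 0.99), and CLDN7 was followed by RAB25 (0.99), F11R by PDLIM1 (0.99), CLDN3 by VAMP8 (0.97), CLDN1 by COG3 (0.97) and OCLN by ZBTB10 (0.96). The same measure gave PHAF1 for TJP1 (0.95), LINC00960 for CLDN2 (0.95), ISG20 for CLDN12 (0.93) and PCIF1 for CLDN23 (0.82). Among the 10 genes themselves CLDN4 and F11R were closest (0.98), followed by CLDN3 and F11R (0.95), whereas CLDN12 ran opposite to TJP1 (r = -0.54). The 48 points come from only 6 lines, so these values describe differences in level between lines. Spearman's rho for the named pairs outside the 10 ran from 0.62 (CLDN7 and RAB25) to 0.94 (CLDN3 and VAMP8). Ranking by rho kept between 0 and 2 of the 3 closest genes of each member.

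The second question was whether LRCs and non-LRCs differ. With the 6 lines in 1 fit and line as a term, 4 of the 10 genes passed an adjusted p of 0.05, beside 22.9% of all 16603 genes tested. CLDN1, OCLN and F11R were higher in LRCs and CLDN2 was lower. The median log2 fold change was 0.06 over the 10 genes and 0.01 over all genes. CLDN1 was higher by 0.39 on the log2 scale (SE 0.10, edgeR adjusted p = 0.00435), with the LRC sample above the non-LRC sample of the same number in 20 of 24 cases. The numbers were not taken as pairs in SW948 or RKO, so such counts over 24 cases, here and below, only describe the values. CLDN1 in RKO rested on 0 to 3 counts per sample. F11R was higher by 0.13 (SE 0.03, adjusted p = 0.00109, 19 of 24) and OCLN by 0.17 (SE 0.05, adjusted p = 0.00933, 16 of 24). CLDN2 fell by 0.59 (SE 0.15, adjusted p = 0.00338), being lower in the LRC sample in 16 of 24 cases, but DESeq2 gave -0.24 on the log2 scale (adjusted p = 0.399). Without SW948 LRC replicate 4 the same 4 genes passed, with changes of 0.42 for CLDN1, -0.62 for CLDN2, 0.18 for OCLN and 0.13 for F11R. Without replicate 3 of every group OCLN missed the threshold (0.15, adjusted p = 0.0578). CLDN4 (0.20 on the log2 scale, edgeR adjusted p = 0.0755), TJP1 (0.09), CLDN7 (0.03), CLDN12 (0.03), CLDN23 (-0.03) and CLDN3 (-0.06) did not pass.

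Not every gene changed alike in the lines, and only CLDN2 had called changes of opposite sign, in DLD1 and RKO. In RKO it met the count filter only through LRC samples. The LRC difference itself varied between lines for CLDN2 (edgeR adjusted p = 0.011) and CLDN4 (0.0191), a class of result found for 14.3% of all genes. With the replicate number as a block within lines, CLDN1 (0.00636), CLDN3 (0.00642) and OCLN (0.00408) were called as well. The block also covered SW948 and RKO, where the numbers were not taken as pairs. Over all genes the blocked test called 5584, against 2380 without the block, so these added calls came with a larger background. Without replicate 1, 3 or 4 of every group neither CLDN2 (adjusted p from 0.0751 to 0.191) nor CLDN4 (0.0723 to 0.153) passed this test unblocked, whereas both passed without replicate 2. Without SW948 LRC replicate 4 alone, CLDN2, CLDN3 and CLDN4 passed. Same-numbered LRC and non-LRC samples deviated together in HT55, SW48, DLD1 and HCT15 but not in SW948 or RKO, so the blocked value is given beside the result for the first 4 lines where it changed a call.

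**Figure D3:**
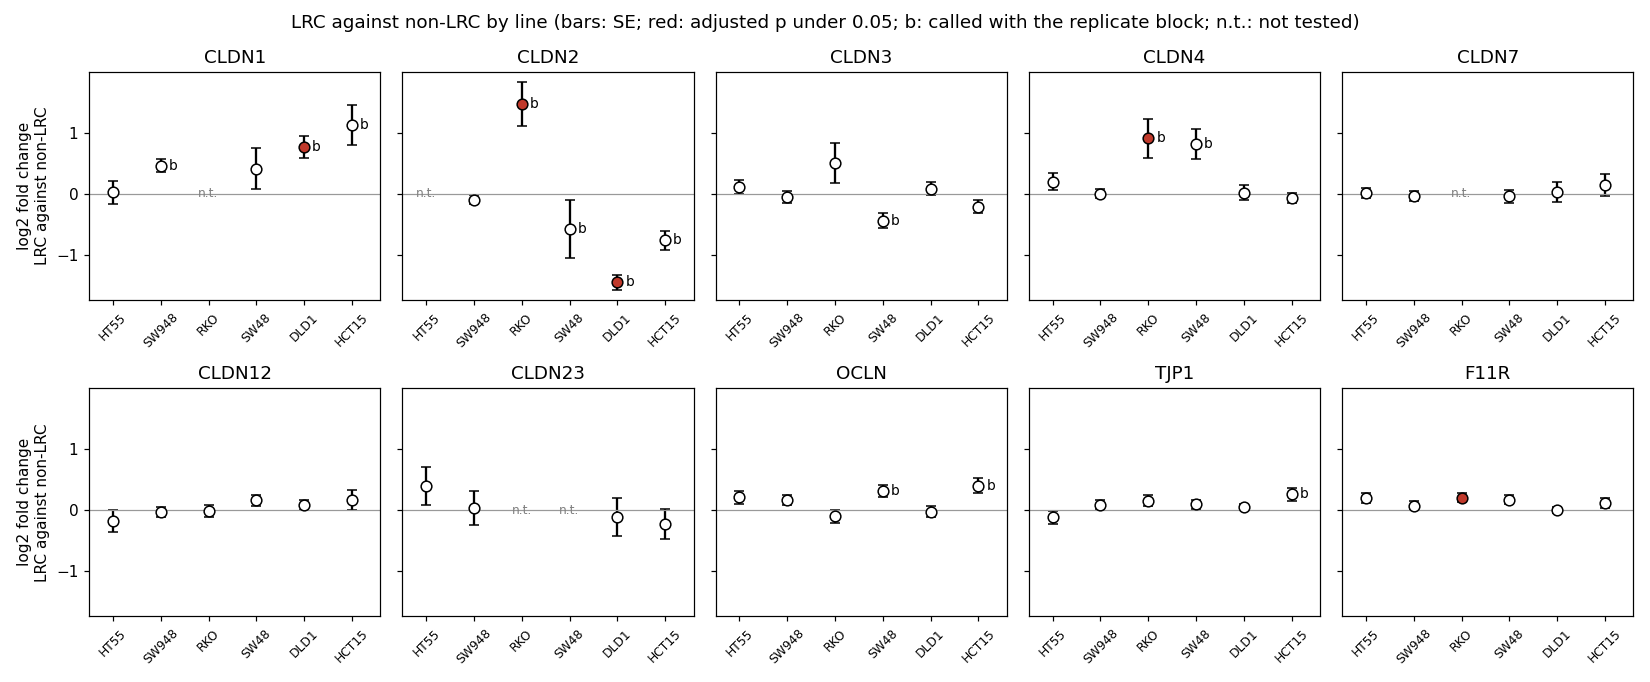
Log2 fold change of LRCs against non-LRCs for each gene in each line (points with standard errors from edgeR, red where the adjusted p is under 0.05, b where the fit with the replicate block passed, n.t. where the gene was not tested). CLDN2 lies at 1.47 in RKO and -1.44 in DLD1, the 2 lines in which its difference was called without the block, although in RKO it entered the test only through its LRC counts.

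CLDN2 gave the widest contrast. In DLD1 it was at 17.3, 16.5, 13.1 and 11.7 CPM in LRCs and 42.9, 43.1, 34.5 and 41.1 CPM in non-LRCs. Every LRC sample was below every non-LRC sample, and the level fell by 1.44 on the log2 scale (SE 0.12, edgeR adjusted p = 0.000279). In HCT15 the LRC samples held 59.9, 78.8, 64.1 and 62.2 CPM and the non-LRC samples 137.6, 135.8, 89.9 and 88.2 CPM, again without overlap, for a change of -0.76 on the log2 scale (SE 0.16) that passed with the block (adjusted p = 4.22e-05) and not without it (0.0589). In SW48 the LRC sample was below its non-LRC counterpart in 4 of 4 pairs (18.9, 43.8, 12.3 and 17.8 against 19.5, 71.7, 20.8 and 25.8 CPM), but the groups overlapped, since replicate 2 was high in both. That change, -0.57 on the log2 scale, passed only with the block (-0.53, adjusted p = 0.0189, against 0.649 without it).

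RKO ran the other way at a far lower level. CLDN2 stood at 0.912, 0.781, 1.27 and 1.08 CPM in RKO LRCs and 0.290, 0.249, 0.532 and 0.361 CPM in RKO non-LRCs, so that the groups did not overlap. It rose by 1.47 on the log2 scale (SE 0.36, edgeR adjusted p = 0.00384), but it had passed the count filter only through the LRC samples (11 to 21 counts, against 4 to 7 in non-LRCs), so that this call is no independent support for the direction. It was also called with no filter on low counts, but with all 48 sorted samples in 1 fit the change of 1.49 did not pass (adjusted p = 0.153), and with any 1 replicate number left out it did not pass the count filter. In HT55 the LRC values (0.347, 0.316, 0.5 and 0.513 CPM) also lay above the non-LRC values (0.0691, 0.289, 0.219 and 0 CPM), but the gene did not pass the count filter there and was not tested. SW948, with the highest level of the 6 lines, showed 238.2, 227.4, 200.5 and 237.1 CPM in LRCs and 252.4, 245.8, 227.3 and 241.2 CPM in non-LRCs, a change of -0.09 on the log2 scale that did not pass (adjusted p = 0.526).

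**Figure D4:**
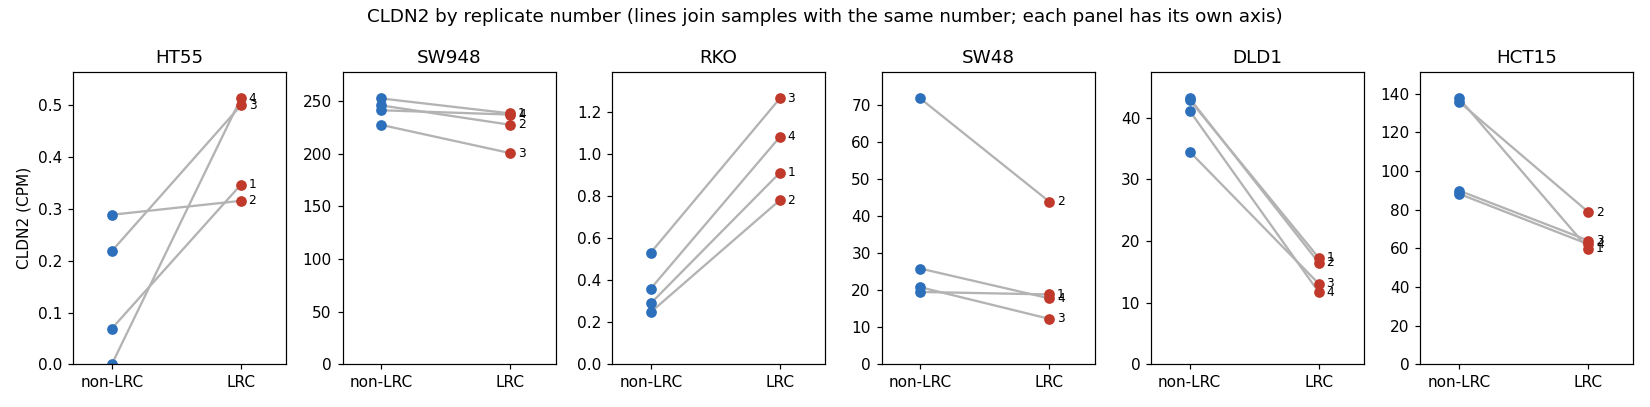
CLDN2 level (CPM) in each non-LRC and LRC sample of the 6 lines, with gray lines joining samples of the same replicate number and a separate axis for each line. All 4 lines fall in SW948, SW48, DLD1 and HCT15 and all 4 rise in RKO and HT55, where no sample exceeds 1.27 CPM.

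CLDN1 was higher in LRCs of DLD1 and, with the block, of HCT15. In DLD1 it was at 3.92, 3.63, 5.02 and 5.19 CPM in LRCs and 2.39, 2.24, 3.05 and 2.81 CPM in non-LRCs, without overlap, and rose by 0.77 on the log2 scale (SE 0.18, edgeR adjusted p = 0.0164). Without replicate 1, 3 or 4 the DLD1 change lay between 0.73 and 0.79 and did not pass (adjusted p from 0.0674 to 0.0779), nor did it with all 48 sorted samples in 1 fit (0.76, adjusted p = 0.0815). In HCT15 it was at 0.75, 1.11, 1.81 and 1.57 CPM against 0.449, 0.595, 0.631 and 0.725 CPM, also without overlap, a change of 1.12 (SE 0.33) that passed with the block (adjusted p = 0.0105) and not without it (0.135). The HCT15 counts were 16 to 31 in LRCs and 8 to 11 in non-LRCs, so that the LRC samples alone had met the filter. In SW948 the values were 76.5, 68.9, 63.6 and 51.7 CPM in LRCs and 46.9, 42.5, 53.8 and 46.6 CPM in non-LRCs, and the groups overlapped only through LRC replicate 4, the library that resembled non-LRCs. The change of 0.46 in SW948 did not pass (adjusted p = 0.139), whereas without that library it was 0.56 (SE 0.09, adjusted p = 0.00108). That library was chosen from these data for its likeness to non-LRCs. Its removal tends to widen differences between LRCs and non-LRCs, so the second value is no independent support. HT55, the line with the highest CLDN1, gave 0.03 (adjusted p = 0.984), and in RKO the gene was not tested.

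CLDN4 rose in RKO LRCs, from 0.508, 0.746, 0.76 and 0.421 CPM in non-LRCs to 1.49, 1.34, 1.03 and 0.824 CPM, without overlap (0.91 on the log2 scale, SE 0.32, edgeR adjusted p = 0.034), on 13 to 24 counts in LRCs and 7 to 12 in non-LRCs, so that the LRC samples alone had met the filter. In SW48 LRCs it was at 24.2, 28.4, 50.0 and 30.8 CPM against 18.0, 19.2, 25.4 and 12.6 CPM, higher in 4 of 4 pairs, a change of 0.81 that passed with the block (adjusted p = 0.00384) and not without it (0.195). In HT55, SW948, DLD1 and HCT15, where its level was far higher, the CLDN4 change lay between -0.06 (HCT15) and 0.20 (HT55) on the log2 scale, and none of these passed. RKO and SW48 were thus the 2 lines with the least CLDN4. Without replicate 1, 2 or 4 of both populations the RKO change did not pass (0.73 to 0.94, adjusted p from 0.0612 to 0.15), and it did not pass with DESeq2 (0.0618), with no filter on low counts (0.0724) or with all 48 samples in 1 fit (0.0833).

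CLDN3 was lower in SW48 LRCs (13.0, 11.8, 10.3 and 11.7 CPM) than in SW48 non-LRCs (17.5, 16.6, 13.2 and 16.1 CPM), with LRC replicate 1 just under the lowest non-LRC sample. That change of -0.44 passed with the block (adjusted p = 0.0133) and not without it (0.168), and CLDN3 passed in no other line. CLDN7, CLDN12 and CLDN23 passed in none of the lines in which they were tested. CLDN7 was not tested in RKO, and CLDN23 was tested in neither RKO nor SW48.

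OCLN, whose protein runs along the strands beside the claudins, was higher in HCT15 LRCs (157.5, 177.7, 139.1 and 149.5 CPM) than in HCT15 non-LRCs (132.8, 132.1, 95.97 and 113.9 CPM) and higher in SW48 LRCs (66.5, 63.6, 71.8 and 61.9 CPM) than in SW48 non-LRCs (56.7, 43.7, 58.6 and 53.7 CPM). The groups did not overlap in either line. Both changes, 0.40 in HCT15 and 0.31 in SW48 on the log2 scale, passed with the block (adjusted p = 0.000247 and 0.0235) and not without it (0.129 and 0.221). F11R rose in RKO LRCs, from 40.7, 42.8, 42.0 and 43.3 CPM to 51.1, 52.1, 44.8 and 48.4 CPM (0.20, SE 0.07, edgeR adjusted p = 0.0346), without overlap, but the F11R change did not pass without replicate 1, 2 or 4 (0.17 to 0.22, adjusted p from 0.101 to 0.147) or with no filter on low counts (0.124). TJP1 was called only in HCT15 with the block (0.26, adjusted p = 0.0101, against 0.282 without it).

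The number of genes called differed widely between lines, which bears on these counts. In RKO CLDN2, CLDN4 and F11R passed, the first 2 having met the filter through LRC samples, beside 41.5% of all genes, and in DLD1 2 of 10, beside 14.6% (33.8% with the block, which called the same 2). In SW48 and HCT15 no member passed in edgeR without the block (DESeq2 called 1 and 2), beside 0.796% and 0.977% of all genes, and 4 passed in each with it, beside 9.69% and 21.3%. CLDN1, among those called in HCT15, had met the filter through LRC samples. In HT55 and SW948 edgeR called no gene at all, although 1005 and 2350 genes had an unadjusted p under 0.05 and DESeq2 called 37 and 244. Without LRC replicate 4, a library chosen after the data were seen, SW948 had 14.5% of genes called and CLDN1 was the only member among them.

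Proliferation genes moved with some of these differences. Of 4 cycling markers (MKI67, TOP2A, CCNB1 and MCM2), 3 fell in DLD1 LRCs and 3 in RKO LRCs. Their sum was 477 to 700 CPM in DLD1 LRCs and 776 to 884 CPM in DLD1 non-LRCs, and 318 to 664 against 651 to 766 CPM in RKO. In SW48 the sum was 234 to 666 against 268 to 1046 CPM and in HCT15 677 to 1307 against 612 to 1124 CPM. With the block, which gave the member calls in both lines, all 4 markers fell in SW48 LRCs and 1 (TOP2A) rose in HCT15 LRCs, and 4 fell in DLD1 LRCs. The part of cycling cells in the differences of the members was not tested.

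Other components of the junction were read from fixed lists over the 6 lines together. Of 17 plaque and scaffold genes tested, 4 rose and 1 fell in LRCs (median 0.09 on the log2 scale), and the counts of this and the following lists stand beside the 22.9% of all genes called in this comparison. USP53, a tight junction protein of the ubiquitin protease family, was higher by 0.30 (SE 0.05, edgeR adjusted p = 6.47e-06), with all 24 LRC samples above their counterparts, and SYMPK, a plaque and polyadenylation protein, fell by 0.15 (SE 0.03, adjusted p = 0.000274). AMOTL1, an angiomotin relative, rose by 1.39 (SE 0.30, adjusted p = 0.000619). Of 9 polarity genes 2 rose, PALS1 by 0.24 (adjusted p = 2.15e-05) and PARD6B by 0.39 (adjusted p = 0.00279), and of 5 genes of tricellular junctions and MARVEL proteins 2 rose, MARVELD2, which encodes tricellulin, by 0.15 (adjusted p = 0.00122) and ILDR2 by 0.48 (adjusted p = 0.00325).

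Of the 17 other claudins listed, 5 passed the filter on low counts and 1 rose, CLDN9 by 0.45 (SE 0.14, edgeR adjusted p = 0.0133). The protease inhibitor genes SPINT1 (0.15, adjusted p = 0.003) and SPINT2 (0.15, adjusted p = 0.0126) rose among 5 claudin-7 partners and membrane proteases, and ESAM (0.46, adjusted p = 0.000733) rose among 3 tested adhesion receptors. Of 11 adherens junction genes only NECTIN4 passed (0.64, adjusted p = 0.000553), and of 6 tested mesenchymal state genes FN1 (0.97, adjusted p = 0.000261) and SNAI1 (0.21, adjusted p = 0.0426) rose. One of 8 epithelial markers (VIL1) and 1 of 4 cycling markers (MCM2) fell. Among 3 tested leukocyte markers CD68 and CD79A rose, and the single fibroblast and the single endothelial marker tested did not pass.

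The third question concerned the controls, which ask what time in culture and the dye do to DLD1 cells on their own. Here CLDN2 was again the most variable member. It was at 430.0, 465.2, 398.5 and 235.1 CPM in DMSO d1 samples and 72.0, 80.0, 192.1 and 188.0 CPM in CFSE d1 samples, the value of 235.1 CPM belonging to the library labeled DMSO d1 replicate 4. At day 5 the values were 217.9, 304.3, 230.9 and 240.3 CPM with DMSO and 280.3, 304.8, 305.9 and 291.9 CPM with CFSE. The day 1 groups did not overlap, the CFSE samples 1 and 2 lay far below samples 3 and 4, and the day 5 groups overlapped.

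With dye, CLDN2 fell at day 1 by 1.52 on the log2 scale (SE 0.28, edgeR adjusted p = 0.00266) and at day 5 its change was 0.25 (SE 0.27, adjusted p = 0.611). The difference between those dye effects was called (1.77, SE 0.39, adjusted p = 0.0408), as it was for 0.999% of all genes, and CLDN2 was the only member among them. Without replicate 1, 2 or 3 of every control group that difference lay between 1.45 and 1.96 and did not pass (adjusted p from 0.188 to 0.451), and it missed the threshold without TMM (0.061) and with DESeq2's size factors (0.0518). From day 1 to day 5 it rose by 1.15 in CFSE-labeled cells (SE 0.28, adjusted p = 0.0043), whereas in unlabeled cells its change was -0.62 (SE 0.27, adjusted p = 0.0989). Without the library labeled DMSO d1 replicate 4, the unlabeled change was -0.87 (SE 0.28, adjusted p = 0.0189), and the dye effects differed by 1.99 (adjusted p = 0.00646), the dye change at day 1 being -1.72 (adjusted p = 0.0016), beside 6.09% of all genes called, CLDN4 among them (-0.49, adjusted p = 0.0443). Without replicate 2 of every group neither the dye change at day 1 (-1.22, adjusted p = 0.052) nor the change over time with dye (0.88, adjusted p = 0.0582) passed. These controls held more CLDN2 than the sorted DLD1 samples (11.7 to 43.1 CPM), but they were scaled separately and no test was made across them.

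**Figure D5:**
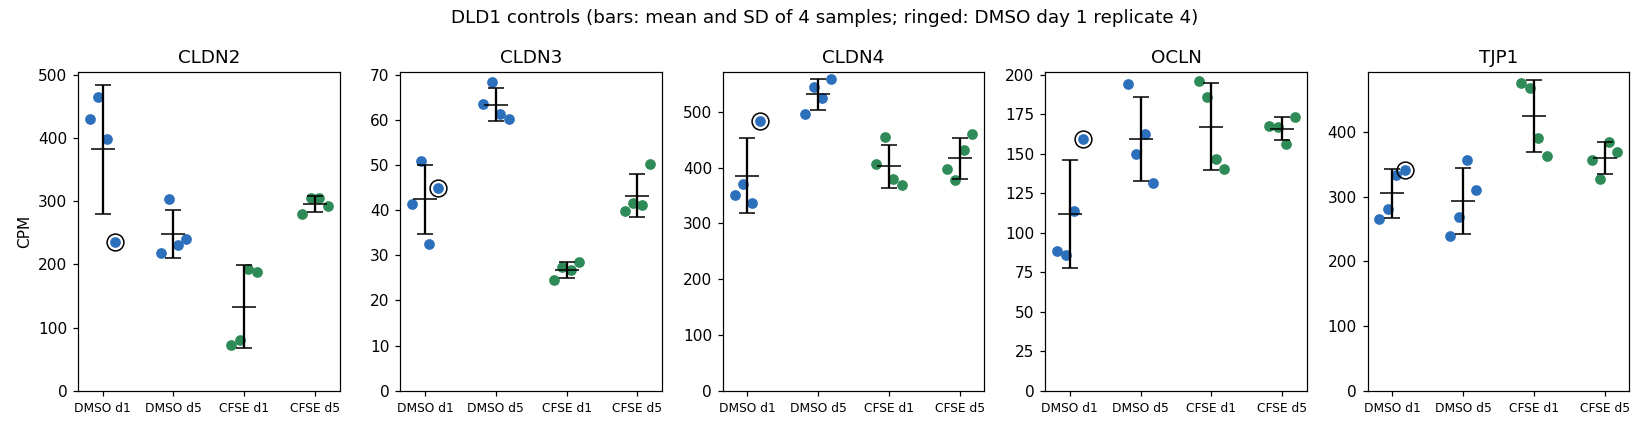
Level of CLDN2, CLDN3, CLDN4, OCLN and TJP1 in the 16 DLD1 controls (CPM), by dye and day, with bars at the mean and SD of 4 samples and the library labeled DMSO d1 replicate 4 ringed. CLDN2 is lowest in the CFSE d1 samples (72.0 to 192.1 CPM), and CLDN3 is higher at day 5 than at day 1 with and without dye.

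CLDN3 changed in the same direction over time with and without dye. It was at 41.3, 50.9, 32.4 and 44.8 CPM at day 1 and 63.5, 68.4, 61.2 and 60.2 CPM at day 5 in unlabeled cells, and at 24.5, 27.3, 26.6 and 28.6 CPM at day 1 and 39.7, 41.6, 41.2 and 50.2 CPM at day 5 in CFSE-labeled cells. Neither pair of groups overlapped. It rose by 0.58 without dye (SE 0.13, edgeR adjusted p = 0.00814) and by 0.69 with it (SE 0.13, adjusted p = 0.000846). Without DMSO d1 replicate 4 the CLDN3 change over time without dye was 0.54 (adjusted p = 0.00463) and the dye changes were -0.67 at day 1 (0.00534) and -0.54 at day 5 (0.00973). With dye it was lower on both days, by -0.66 on the log2 scale at day 1 (adjusted p = 0.00336) and -0.55 at day 5 (adjusted p = 0.024). The day 5 call was lost without replicate 1, 2 or 3 (adjusted p from 0.108 to 0.32), and the day 1 call without replicate 2 (-0.56, adjusted p = 0.061).

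CLDN4 and OCLN rose from day 1 to day 5 in unlabeled cells. CLDN4 went from 350.8, 370.4, 336.7 and 483.8 CPM to 496.0, 544.2, 524.2 and 559.3 CPM (0.46, SE 0.12, edgeR adjusted p = 0.0153), the highest day 1 value being that of replicate 4. OCLN went from 88.2, 86.1, 113.8 and 159.4 CPM to 194.2, 149.6, 162.2 and 131.5 CPM (0.51, SE 0.18, adjusted p = 0.0437), and its groups overlapped through the same library. Without it the changes were 0.52 (adjusted p = 0.000817) and 0.66 (adjusted p = 0.00223), and F11R was called too (0.32, adjusted p = 0.0263). That library was chosen from these data for its likeness to day 5 samples. Its removal tends to widen differences between the days, so these stronger calls are no independent support. No member passed for time in unlabeled cells without replicate 1, 2 or 3 of both groups, which left replicate 4 as 1 of 3 day 1 samples, while 7 passed without replicate 4. Over all genes, 0 were called without replicate 1, 2 or 3 and 6378 without replicate 4, against 3695 with all samples. The member counts thus moved with those of all genes. Without TMM neither CLDN4 (adjusted p = 0.0546) nor OCLN (0.0949) passed. In CFSE-labeled cells the changes of CLDN4 (0.05) and OCLN (-0.01) did not pass.

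At day 1 OCLN and TJP1 were higher with dye. OCLN stood at 195.9, 185.6, 146.9 and 140.2 CPM with CFSE, which overlapped the DMSO values only through replicate 4 at 159.4 CPM (0.58, SE 0.18, edgeR adjusted p = 0.0279). Without that library the OCLN change was 0.75 (adjusted p = 0.00497) and that of TJP1 0.49 (adjusted p = 0.023). TJP1 stood at 476.3, 467.8, 391.1 and 363.0 CPM with CFSE and 265.5, 280.3, 333.5 and 341.8 CPM with DMSO, without overlap (0.48, SE 0.14, adjusted p = 0.0203). For both genes the CFSE samples 1 and 2 lay above samples 3 and 4. Neither gene passed at day 1 without replicate 1 or 2 (adjusted p from 0.133 to 0.219), OCLN did not pass without replicate 3 (0.0665), and neither passed for dye at day 5. CLDN1, CLDN7, CLDN12 and CLDN23 passed in none of the 4 control contrasts. CLDN7 ranged from 199.2 to 325.5 CPM over the 16 samples and CLDN1 from 0.323 to 1.34 CPM.

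In counts, 3 of the 10 genes passed for time without dye, beside 25.5% of all 14518 genes tested, and 2 passed for time with dye, beside 39.3%. For dye 4 passed at day 1, beside 21.8%, and 1 at day 5, beside 5.13%. Without the library labeled DMSO d1 replicate 4 those counts were 5 beside 42.1%, 2 beside 43.7%, 4 beside 18% and 2 beside 13.3% (CLDN3 and CLDN4). The cycling marker sum was 1507 to 2063 CPM in DMSO d1 samples, 843 to 1403 in DMSO d5, 1507 to 1759 in CFSE d1 and 1860 to 2338 in CFSE d5, and its part in these differences was not tested. The contrasts share groups of samples, so their results are not independent of one another.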

How the data were processed

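RNA of 64 samples was sequenced as 50-base single-end reads. The authors aligned reads and counted them per gene, and the submitters' processing notes name TopHat, HTSeq, DESeq and the build hg19 without versions. The gene annotation and strand setting are not given in the sources used here. The deposited values are raw counts per gene, used as deposited. The 5 HTSeq summary lines were left out (reads in no feature 5.19 to 14.8%, ambiguous reads 1.515 to 2.21%). Symbols, positions and lengths came from GENCODE on GRCh37 (47098 of 54127 identifiers matched), and sequences from RefSeq.

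Counts were fitted with edgeR 4.0.16 in R 4.3.3 (TMM, quasi-likelihood F test, genes kept when 4 or more samples of the fit had a count of 10 or more, Benjamini-Hochberg adjustment over all genes tested, threshold 0.05), and the SE is the fold change over the root of F. LRCs were compared with non-LRCs within each line and over 6 lines with line as a term, lines were compared on non-LRCs, and controls were fitted over 4 groups. The CPM were TMM scaled per arm, and log2 CPM used a prior count of 2. Pairing was checked by correlating deviations from group means between same-numbered samples, and the numbers were taken as pairs where all 4 correlations exceeded 0.1: HT55 (0.142 to 0.399), SW48 (0.128 to 0.463), DLD1 (0.155 to 0.336), HCT15 (0.241 to 0.434) and CFSE d1 with CFSE d5 (0.158 to 0.289). The lowest was 0.011 in SW948 and -0.068 in RKO. Alternatives were DESeq2 1.42.0, its size factors in edgeR, no TMM, no filter, the replicate block, all 48 sorted samples in 1 fit, and each replicate left out. The scripts were tested on simulated data. Genes named from each fixed list were up to 3 with the smallest adjusted p over the 6 lines and up to 3 with the widest range of line means, with the 3 genes closest to each member by Pearson r. Members and lists were chosen with earlier results of these data known. Depth limits CLDN23 everywhere and CLDN1, CLDN2, CLDN3, CLDN4 and CLDN7 in RKO, where levels rest on few reads. Few reads also lie behind CLDN2 in HT55 and CLDN1 in HCT15 and in the DLD1 controls.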

Additional observations from a re-analysis of the deposited data

Results flagged for a closer look

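For CLDN2 and CLDN4 the change from non-LRC to LRC differed between the 6 lines, by the test of the difference itself (edgeR adjusted p = 0.011 for CLDN2 and 0.0191 for CLDN4). Neither call held without replicate 1, 3 or 4 of every group (adjusted p from 0.0751 to 0.191 and from 0.0723 to 0.153). CLDN2 was lower in LRCs of DLD1, and its rise in RKO LRCs (1.47) rests on a gene that met the count filter only through those LRC samples. The CLDN4 change was 0.91 in RKO, 0.81 in SW48 (called only with the replicate block, adjusted p = 0.00384) and between -0.06 and 0.20 in the other 4 lines. In RKO the LRC samples alone had met the count filter for CLDN4. That call was lost with DESeq2 (adjusted p = 0.0618) and without replicate 1, 2 or 4 (0.0612 to 0.15). In the DLD1 controls the dye effect on CLDN2 differed between days (edgeR adjusted p = 0.0408), being a fall of 1.52 at day 1 and a change of 0.25 at day 5 on the log2 scale. The dye call was lost without TMM (adjusted p = 0.061), with DESeq2's size factors (0.0518) and without replicate 1, 2 or 3 (0.188 to 0.451).

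Of 160 sets of 4 samples, 5 had a sample far from the other 3 by Dixon's criterion, and chance alone sets apart about 1 in 20 such sets. CLDN1 was lowest in HT55 LRC replicate 2 (115.8 CPM, the others 175.7 to 190.1), and HT55 replicate 2 also held the lowest CLDN1 among non-LRCs (103.7 CPM). F11R was highest in SW948 LRC replicate 1 (351.6 CPM) and lowest in SW948 non-LRC replicate 4 (277.4 CPM). CLDN12 was highest in SW48 non-LRC replicate 3 (45.53 CPM, in a group with a mean of 39.4). F11R was highest in the library labeled DMSO d1 replicate 4 (275.3 CPM), the library that lay nearest to a DMSO d5 sample.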

How the results depend on the processing

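Over 125 fold changes or tests of a difference for the members, 1253 alternative values were computed. Of these, 1157 kept their side of the threshold, 52 lost the call and 44 gained one. Where either fit called the change, 0 changed direction. Sign changes between uncalled values were not counted, such as CLDN3 in SW948 (-0.043, and 0.014 without LRC replicate 4). The tests of a difference between lines have no direction. The cause was not tested. Depth limits CLDN23 throughout and most claudins in RKO.

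Members called over the 6 lines numbered 3 to 4 with a replicate left out (4 in all samples). With DESeq2 the count was 1 in SW948 (CLDN1), 1 in SW48 (CLDN4), 2 in HCT15 and 2 for dye at day 5, from 0, 0, 0 and 1. With no filter it was 1 in SW948, 1 in RKO (from 3), 1 in SW48, 1 in HCT15 and 4 for the difference between lines (from 2). With the replicate block it was 1 in SW948, 4 in SW48, 4 in HCT15 and 5 for the difference between lines, and the block took OCLN from the calls for time without dye (adjusted p = 0.0525) and F11R from those in RKO (0.0617), where the numbers were not taken as pairs. Beyond these and the blocked values given beside the results, the block changed no other call of a member. With all 48 samples in 1 fit it was 1 in RKO, 1 in SW48, 1 in DLD1 (from 2) and 1 in HCT15. Without TMM it was 1 in HCT15, 1 for time without dye (from 3) and 0 for the difference between dye effects, which DESeq2's size factors also put at 0 (from 1). With 1 replicate left out it ran from 0 to 1 in HT55, 0 to 1 in SW948, 0 to 2 in RKO, 1 to 2 in DLD1, 0 to 2 for the difference between lines, 0 to 7 for time without dye, 1 to 2 for time with dye, 0 to 4 for dye at day 1, 0 to 2 for dye at day 5 and 0 to 3 for the difference between dye effects. Without 1 library chosen after the data were seen, it was 1 in SW948, 3 for the difference between lines, and 5, 2 and 2 for time without dye, dye at day 5 and the difference between dye effects.

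Over all genes, DESeq2 called 37 in HT55, 244 in SW948 (0 in each by edgeR), 361 in SW48 (105), 531 in HCT15 (137), 1521 for dye at day 5 (745) and 623 for the difference between dye effects (145). With no filter the counts were 102, 973, 285 and 347 in HT55, SW948, SW48 and HCT15 and 454 for the difference between dye effects. The block gave 501 in SW948, 1279 in SW48, 4591 in DLD1 (1978), 2987 in HCT15, 5584 for the difference between lines (2380) and 1511 for dye at day 5. All 48 samples in 1 fit gave 106, 389, 486, 646 and 697 in HT55, SW948, SW48, DLD1 and HCT15. For the difference between dye effects, no TMM gave 85 and DESeq2's size factors 89. With 1 replicate left out, counts ran from 2243 to 2945 over the 6 lines (3803 in all samples), from 0 to 808 in HT55, from 0 to 940 in SW948, from 3387 to 4721 in RKO (5279), from 0 to 497 in SW48, from 581 to 1515 in DLD1, from 0 to 27 in HCT15, from 522 to 2850 for the difference between lines, from 0 to 6378 for time without dye, from 2858 to 5692 for time with dye (5706), from 338 to 3384 for dye at day 1 (3162), from 0 to 1604 for dye at day 5 and from 0 to 1068 for the difference between dye effects. Without 1 library chosen after the data were seen they were 1956 in SW948, 6077 for time without dye (3695), 1923 for dye at day 5 and 880 for the difference between dye effects.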
